A study of Homo sapiens with 8 samples.

Results

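The transcripts of 10 genes of the NODAL pathway were followed through RNA-seq of H9 hESCs (WiCell WA09), an established human embryonic stem cell line. The genes are the ligand NODAL, the feedback antagonists LEFTY1, LEFTY2, CER1 and SMAD7, the co-receptor TDGF1, the receptors ACVR1B, ACVR2A and ACVR2B, and FOXH1, the DNA-binding partner of the SMADs. They are 10 of the 19472 genes in the table of the crowding experiment and 10 of the 19551 genes in the table of the ETV4 knockdown (KD) experiment, found by symbol. The 10 genes were chosen with their measured differences in both experiments already known, so the values of these genes are given as a description, with no test.

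The series holds 8 libraries in 2 experiments, with 2 libraries in each of 4 groups. In the crowding experiment, low-density hESCs (labelled small) were set beside high-density hESCs (labelled crowded), which could attach only to small drops of Matrigel. In the KD experiment, hESCs with a control hairpin (shControl, labelled Ctrl) were set beside hESCs with a lentiviral hairpin against ETV4 (shETV4, labelled ETV4 KD), an ETS-family transcription factor. Which ETV4 hairpin was sequenced is not stated, and all groups are the same line, on Matrigel in mTeSR1 or TeSR-E8 medium. Nothing in the labels says that replicate libraries came from separate cultures, so the p-values below measure only the spread between these libraries, which may be technical.

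NODAL is a secreted ligand of the TGFβ superfamily that acts through type I receptors such as ACVR1B, type II receptors such as ACVR2A and ACVR2B, and an EGF-CFC co-receptor, TDGF1 (also named CRIPTO). The activated receptors phosphorylate SMAD2 and SMAD3, which join SMAD4 and, with FOXH1, switch on target genes that include NODAL itself and its inhibitors LEFTY1 and LEFTY2. The LEFTY proteins and CER1 act outside the cell, CER1 by binding the ligand, and SMAD7 acts inside the cell on the receptors. Activin and NODAL signalling supports pluripotency in hESCs and directs mesendoderm formation in the embryo, where its inhibitors help to set the neuroectoderm apart.

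In GRCh37, the build of the files, NODAL lies on chromosome 10 from 72191692 to 72207707, CER1 on chromosome 9 from 14719722 to 14722731, SMAD7 on chromosome 18 from 46446223 to 46477335 and TDGF1 on chromosome 3 from 46616024 to 46623947. LEFTY1 (chromosome 1 from 226073982 to 226099082) and LEFTY2 (226124298 to 226129083) are neighbours on the same strand, with 25215 bases between the annotated genes. They are close paralogs, so the division of reads between LEFTY1 and LEFTY2 is uncertain. RefSeq promoter windows (GRCh38.p14) were used for 7 of the 10 genes, in 11 windows. No window was used for LEFTY1, LEFTY2 or FOXH1, so nothing is said here about motifs before their starts. The 250 bases before an annotated start are shown for NODAL, CER1, SMAD7 and TDGF1. SMAD7 and TDGF1 also had a window farther upstream, which is not shown. Among the genes for which a window was used, these had large differences in at least 1 experiment. Each runs 5′ to 3′ on the gene's strand. Capitals mark matches, on either strand, to a FOXH1 motif (AATNCACA), a SMAD box (CAGAC) or an ETS-type motif (CCGGAA).
NODAL, chr10:70441682-70441931, minus strand: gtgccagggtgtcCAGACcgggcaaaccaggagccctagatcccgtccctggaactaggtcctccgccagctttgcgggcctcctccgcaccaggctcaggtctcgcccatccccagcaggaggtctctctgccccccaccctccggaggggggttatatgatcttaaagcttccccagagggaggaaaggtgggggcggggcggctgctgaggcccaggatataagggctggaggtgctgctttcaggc
CER1, chr9:14722734-14722983, minus strand: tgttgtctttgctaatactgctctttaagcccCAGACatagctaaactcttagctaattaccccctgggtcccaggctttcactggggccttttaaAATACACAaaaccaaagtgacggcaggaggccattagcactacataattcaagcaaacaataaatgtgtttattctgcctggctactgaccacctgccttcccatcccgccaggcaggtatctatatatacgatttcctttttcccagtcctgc
SMAD7, chr18:48949334-48949583, minus strand: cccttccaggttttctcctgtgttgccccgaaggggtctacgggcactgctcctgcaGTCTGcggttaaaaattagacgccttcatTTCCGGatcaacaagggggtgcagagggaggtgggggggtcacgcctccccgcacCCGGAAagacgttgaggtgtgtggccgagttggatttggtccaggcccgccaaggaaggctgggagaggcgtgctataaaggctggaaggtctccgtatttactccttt
TDGF1, chr3:46577538-46577787, plus strand: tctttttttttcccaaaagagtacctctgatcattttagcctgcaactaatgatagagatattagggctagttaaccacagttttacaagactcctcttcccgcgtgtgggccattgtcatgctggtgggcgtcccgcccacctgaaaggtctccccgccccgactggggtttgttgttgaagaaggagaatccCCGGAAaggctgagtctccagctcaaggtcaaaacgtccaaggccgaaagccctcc

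The CER1 window held 1 FOXH1 motif, AATACACA, 154 to 147 bases before the start. CER1 was the only one of the 7 genes with a match to this motif, which 2.89% of all 35116 promoter windows of this length held. SMAD boxes are common letters, present in 38.0% of all windows, and the NODAL and CER1 windows held 1 each. The SMAD7 window shown held 1 SMAD box and 2 ETS-type motifs, another SMAD7 window held 2 SMAD boxes, and the last SMAD7 window held no match. The TDGF1 window shown held 1 ETS-type motif, which was found in 14.5% of all windows, and the other TDGF1 window held no match. For SMAD7 and TDGF1 the window shown is the one with ETS-type motifs, so it does not stand for the other starts of these genes. The palindromic SMAD element GTCTAGAC was in 0.182% of all windows and in 0 of the 11. No match was found for ACVR2A or ACVR2B, and 1 of the 2 ACVR1B windows held 1 SMAD box. A match describes the letters and is no evidence of binding.

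The libraries held 50359703 to 62410168 counts on genes. The spread between replicates exceeded counting noise (chi-square of 5.51 to 21.9 for each degree of freedom), most in shETV4, and replicates were used as separate libraries. ETV4, the targeted gene, had 90.8 and 95.1 FPKM in the shControl libraries and 45.6 and 40.9 FPKM in the shETV4 libraries (log2 fold change -1.15 ± 0.07 (SE), edgeR's quasi-likelihood test, Benjamini-Hochberg adjusted p = 0.00016). In the crowding experiment ETV4 had 73.2 and 72.6 FPKM at low density against 54.2 and 53.9 FPKM at high density (log2 fold change -0.49 ± 0.06, adjusted p = 9.42e-07), just under the fold threshold of 0.5. FPKM is a level scaled to transcript length and to the number of mapped fragments. All 9 pluripotency markers looked at, among them POU5F1, NANOG and SOX2, were above 1 FPKM in every group. Their summed levels were 3127 to 3251 FPKM at low density and 3163 to 3322 FPKM at high density. In the KD experiment the sums were 2495 to 2695 FPKM in shControl and, without overlap, 2902 to 2942 FPKM in shETV4. Of 6 primitive streak and endoderm markers, 4 are among the genes of the crowding experiment and 3 among those of the KD experiment. None of these reached a mean of 1 FPKM in any group.

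**Figure D1:**
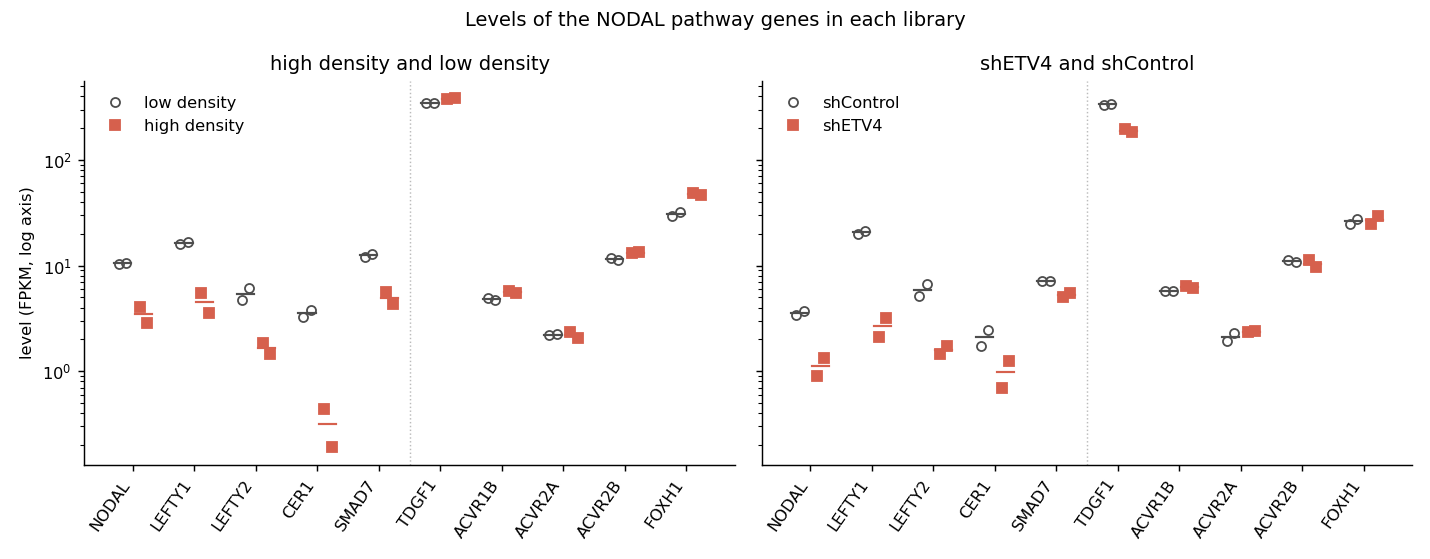
Levels of the 10 NODAL pathway genes in FPKM on a log axis, with low-density and high-density libraries on the left and shControl and shETV4 libraries on the right. Each symbol is 1 library and each line a group mean; the ligand and the feedback antagonists stand left of the dotted line, where all 5 genes are lower in both high-density libraries and in both shETV4 libraries than in their controls. The step is smallest for SMAD7 in shETV4 (7.18 and 7.16 against 5.03 and 5.52 FPKM).

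The parts of the pathway were expressed at very different levels. TDGF1 was the most abundant of the 10 transcripts in each of the 4 groups, with low-density libraries at 346 ± 1.79 FPKM (SD, n = 2) and shControl libraries at 337 ± 4.69 FPKM (SD, n = 2). FOXH1 came next in each group, at 31.0 ± 1.75 FPKM (SD, n = 2) and 26.3 ± 1.85 FPKM (SD, n = 2) in the same groups. Among the receptors, the type II receptor ACVR2B stood above the type I receptor ACVR1B and the type II receptor ACVR2A in all 8 libraries, 4.05 to 6.47 times ACVR2A and 1.58 to 2.43 times ACVR1B. TDGF1 was 28.4 to 31.6 times ACVR2B in the 6 libraries other than shETV4, and 17.4 and 19.1 times in the shETV4 libraries.

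At low density the order below FOXH1 was LEFTY1, SMAD7, ACVR2B, NODAL, LEFTY2, ACVR1B, CER1 and ACVR2A, and the libraries of only 1 neighbouring pair, LEFTY2 and ACVR1B, overlapped. At high density ACVR2B and ACVR1B stood above SMAD7, LEFTY1 and NODAL. There, ACVR1B overlapped SMAD7, SMAD7 overlapped LEFTY1 and LEFTY1 overlapped NODAL, and CER1 was the lowest of the 10. In shControl, LEFTY1 was the third as at low density, whereas NODAL was eighth. In shETV4, LEFTY1 was sixth, with libraries that overlapped those of ACVR2A, and NODAL and CER1, which overlapped, were the lowest pair.

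High-density hESCs had less of the ligand and of all 4 feedback antagonists. In bulk RNA, fewer cells expressing a gene and less RNA per cell cannot be told apart. NODAL had 10.4 and 10.7 FPKM at low density and 4.09 and 2.83 FPKM at high density, which is a log2 fold change of -1.67 ± 0.14 (SE). LEFTY1 had 15.9 and 16.7 FPKM at low density and 5.54 and 3.57 FPKM at high density (-1.90 ± 0.20). LEFTY2 had 4.69 and 6.11 FPKM at low density and 1.86 and 1.46 FPKM at high density (-1.78 ± 0.15). For each of these genes the groups did not overlap, and the first high-density library was above the second. When the reads of LEFTY1 and LEFTY2 were summed to 1 gene, the log2 fold change was -1.86.

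CER1, the secreted inhibitor also known as Cerberus, had the largest difference of the 10 genes at high density. Its level was 3.24 and 3.82 FPKM at low density and 0.443 and 0.189 FPKM at high density (log2 fold change -3.53 ± 0.29). The high-density values rested on 35 reads (exact Poisson 95% interval 24.4 to 48.7) and 17 reads (9.90 to 27.2), against 230 and 326 reads at low density. These intervals cover counting error only. Leaving out 1 high-density library moved the log2 fold change of CER1 to -4.25 (without the first) or -3.01 (without the second). SMAD7, the intracellular inhibitor, had 12.0 and 12.9 FPKM at low density and 5.63 and 4.33 FPKM at high density (-1.37 ± 0.10). The second high-density library was the lowest of the 4 libraries for all 5 genes, NODAL, LEFTY1, LEFTY2, CER1 and SMAD7.

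The co-receptor and the receptors did not share this difference in size. TDGF1 had 348 and 345 FPKM at low density and 374 and 382 FPKM at high density, which is a log2 fold change of 0.07 ± 0.05 (SE). ACVR1B had 4.93 and 4.74 FPKM at low density and 5.69 and 5.54 FPKM at high density (0.16 ± 0.08). ACVR2B had 11.7 and 11.3 FPKM at low density and 13.1 and 13.4 FPKM at high density (0.15 ± 0.06). These groups did not overlap, but the fold changes were small. For ACVR2A the groups overlapped, with 2.20 and 2.24 FPKM at low density and 2.36 and 2.08 FPKM at high density (-0.06 ± 0.10). The 3 receptors together summed to 18.3 to 18.8 FPKM at low density and 21.1 FPKM in both high-density libraries.

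FOXH1 went the other way. It had 29.8 and 32.3 FPKM at low density and 48.9 and 46.8 FPKM at high density, which is a log2 fold change of 0.57 ± 0.06 (SE). The annotated span of FOXH1 overlaps that of KIFC2, a kinesin gene, and the sources do not state if strand was used in counting. KIFC2 had 2.78 and 2.63 FPKM at low density and 5.70 and 5.72 FPKM at high density (log2 fold change 1.03 ± 0.09, adjusted p = 2.37e-08). Its part in the FOXH1 value was not tested.

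The thresholds were 0.05 for the adjusted p and 0.5 for the absolute log2 fold change. At these, 5 of the 10 genes were past both on the lower side at high density, against 5.47% of the 17672 genes tested, and 1, FOXH1, on the higher side, against 10.7%. In FPKM, the high-density values did not overlap the low-density values and lay below them for 5 of the 10 genes (29.0% of all genes tested), and lay above them for 4 (41.2%). Because the genes were chosen on this comparison, these counts carry no weight beyond description. The median log2 fold change of the 10 genes was -0.71, and that of all genes tested was 0.00.

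ETV4 KD hESCs also had less NODAL and less of the LEFTY transcripts. NODAL had 3.40 and 3.68 FPKM in shControl and 0.909 and 1.32 FPKM in shETV4, a log2 fold change of -1.66 ± 0.22 (SE). LEFTY1 had 19.8 and 21.4 FPKM in shControl and 2.13 and 3.18 FPKM in shETV4 (-2.95 ± 0.19), the largest difference of the 10 genes in this experiment. LEFTY2 had 5.13 and 6.63 FPKM in shControl and 1.45 and 1.75 FPKM in shETV4 (-1.89 ± 0.19). The groups did not overlap for any of these genes. With the reads of LEFTY1 and LEFTY2 summed to 1 gene, the log2 fold change was -2.58.

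The other feedback antagonists differed less in shETV4. CER1 had 1.74 and 2.46 FPKM in shControl and 0.688 and 1.26 FPKM in shETV4 (log2 fold change -1.09 ± 0.33), from 135 and 177 reads in shControl and 52 and 92 reads in shETV4. The place of CER1 past the thresholds depended on single libraries and on the filter: it was lost without the first shETV4 library (-0.69), without the second shControl library (-0.83), with no filter on low counts and with limma on the FPKM of all genes. SMAD7 had 7.18 and 7.16 FPKM in shControl and 5.03 and 5.52 FPKM in shETV4 (-0.43 ± 0.11), short of the fold threshold. Without the second shETV4 library SMAD7 was past it, at -0.53. The first shETV4 library was the lowest of the 4 for NODAL, LEFTY1, LEFTY2, CER1 and SMAD7, although it held more ETV4 (45.6 FPKM) than the second (40.9 FPKM).

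TDGF1 was lower in shETV4, unlike at high density. It had 333 and 340 FPKM in shControl and 195 and 184 FPKM in shETV4, a log2 fold change of -0.82 ± 0.07 (SE). TDGF1P3, a processed copy of TDGF1 elsewhere in the genome with a nearly identical sequence, had 14.5 and 14.9 FPKM in shControl and 7.45 and 8.88 FPKM in shETV4 (-0.84 ± 0.11), and reads of TDGF1 and TDGF1P3 may have been exchanged. At high density TDGF1P3 had 17.3 and 18.2 FPKM against 18.3 and 17.8 FPKM at low density (-0.08 ± 0.06).

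The receptors and FOXH1 showed small differences in shETV4. ACVR1B had 5.75 and 5.80 FPKM in shControl and 6.41 and 6.09 FPKM in shETV4 (log2 fold change 0.12 ± 0.09). ACVR2A had 1.94 and 2.30 FPKM in shControl and 2.34 and 2.38 FPKM in shETV4 (0.16 ± 0.13). ACVR2B overlapped, with 11.3 and 10.7 FPKM in shControl and 11.2 and 9.64 FPKM in shETV4 (-0.08 ± 0.08). FOXH1 overlapped too, with 25.0 and 27.6 FPKM in shControl and 24.7 and 29.6 FPKM in shETV4 (0.05 ± 0.11), while the overlapping gene KIFC2 had 2.20 and 2.31 against 3.44 and 3.61 FPKM (0.64 ± 0.13, adjusted p = 0.012).

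In the KD experiment 5 of the 10 genes were past both thresholds on the lower side, against 7.10% of the 17879 genes tested, and 0 on the higher side, against 5.88%. In FPKM, both shETV4 libraries were below both shControl libraries for 6 of the 10 genes (31.5% of all genes tested) and above them for 2 (31.8%). These genes were chosen on this comparison as well, and nothing is read from the counts. The median log2 fold change was -0.63, and that of all genes tested was 0.00.

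**Figure D2:**
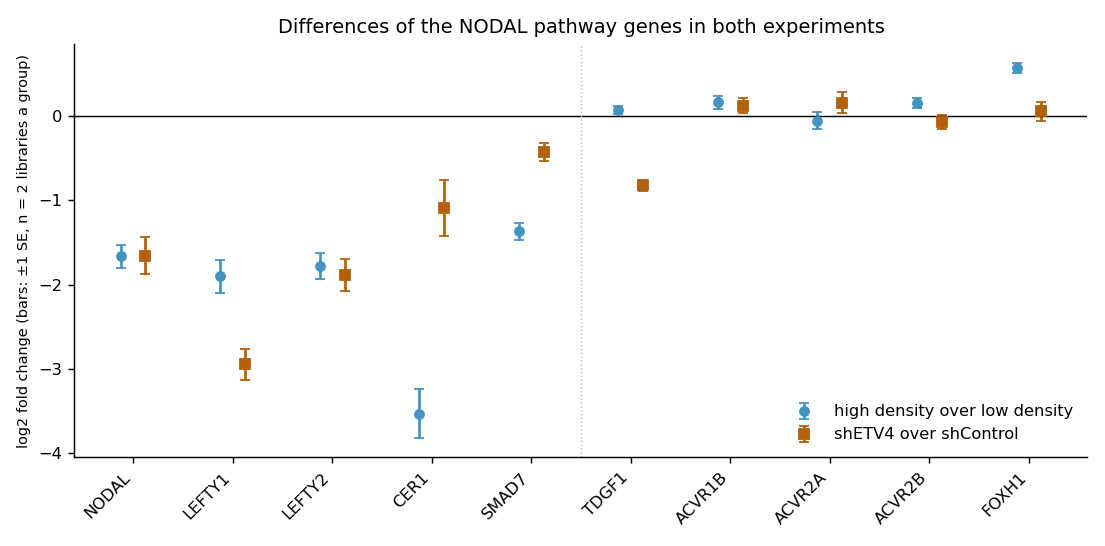
Log2 fold changes of the 10 NODAL pathway genes, high density over low density (circles) and shETV4 over shControl (squares), with bars of 1 SE from edgeR and n = 2 libraries a group. NODAL and LEFTY2 lie at similar depths in both experiments, CER1 and SMAD7 lie lower in crowding, LEFTY1 and TDGF1 lie lower in KD, and the receptors lie near 0 in both.

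Set side by side, NODAL and LEFTY2 had similar fold changes in both experiments, and the other antagonists did not. The log2 fold change at high density minus that in shETV4 was -0.01 ± 0.26 (SE of the difference) for NODAL and 0.11 ± 0.24 for LEFTY2. It was 1.05 ± 0.27 for LEFTY1, which was lower in shETV4, and -2.43 ± 0.44 for CER1 and -0.94 ± 0.15 for SMAD7, which were lower at high density. TDGF1 differed by 0.89 ± 0.08 and FOXH1 by 0.52 ± 0.13, and the receptors by -0.21 ± 0.16 (ACVR2A), 0.04 ± 0.12 (ACVR1B) and 0.23 ± 0.10 (ACVR2B). The differences between the experiments were not tested, since the genes were chosen on both.

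The balance of antagonist to ligand within a library, which does not depend on library depth, showed the same contrast. LEFTY1 was 1.53 and 1.56 times NODAL in FPKM at low density and 1.35 and 1.26 times at high density. In the KD experiment LEFTY1 was 5.81 and 5.82 times NODAL in shControl and 2.34 and 2.41 times in shETV4. The ratios of the control groups were themselves apart, and NODAL had 10.4 and 10.7 FPKM at low density against 3.40 and 3.68 FPKM in shControl. A scaling of a whole library cancels in these ratios but not in the level of NODAL, and the tables were normalized separately. The control groups come from separate experiments and shControl cells carry a lentiviral hairpin, so the sources of that gap cannot be told apart.

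LEFTY2 kept a similar ratio to NODAL within each experiment, 0.451 and 0.571 at low density against 0.456 and 0.515 at high density, and 1.51 and 1.80 in shControl against 1.59 and 1.32 in shETV4. In both experiments these groups overlapped. CER1 was 0.312 and 0.357 times NODAL at low density and 0.108 and 0.0669 times at high density. In the KD experiment CER1 was 0.512 and 0.669 times NODAL in shControl and 0.757 and 0.955 times in shETV4, so this ratio was lower at high density and higher in shETV4. LEFTY1 was 3.39 and 2.73 times LEFTY2 at low density, 2.97 and 2.45 times at high density, 3.85 and 3.23 times in shControl and 1.47 and 1.82 times in shETV4. SMAD7 was 1.15 and 1.21 times NODAL at low density and 1.38 and 1.53 times at high density, and 2.11 and 1.95 times in shControl and 5.53 and 4.18 times in shETV4.

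**Figure D3:**
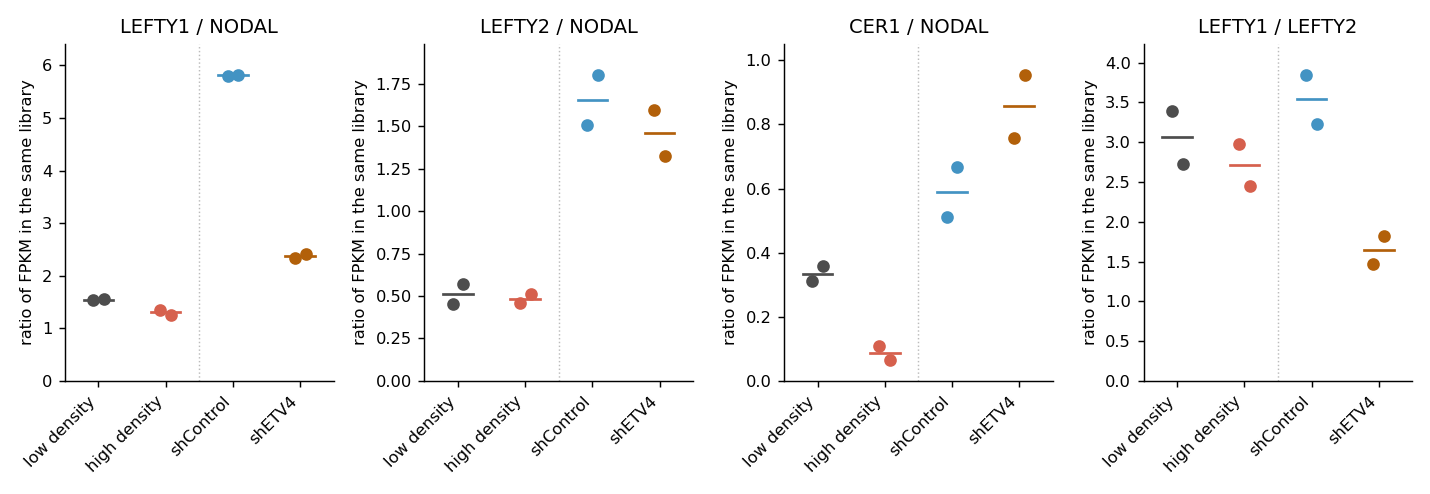
Ratios of FPKM within the same library for LEFTY1 to NODAL, LEFTY2 to NODAL, CER1 to NODAL and LEFTY1 to LEFTY2, each dot 1 library and each line a group mean, with axes from 0. The LEFTY1 to NODAL ratio is 5.81 and 5.82 in shControl and below 2.5 in the shETV4 libraries, and the CER1 to NODAL ratio is lowest at high density.

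The genes whose profile over the 8 libraries was nearest to that of LEFTY1 included both its paralog and the ligand. The distance was Euclidean, on log2 CPM centred on the control mean of each experiment, over 17206 genes. LEFTY2 was first (distance 1.61), followed by GJA5, a gap junction gene (1.72), NODAL (1.87), LINC00886, a non-coding RNA (2.13), and NTS, which encodes neurotensin (2.20). GJA5 had 0.336 and 0.329 FPKM at low density and 0.203 and 0.132 FPKM at high density, and 1.22 and 1.41 FPKM in shControl and 0.272 and 0.286 FPKM in shETV4. NTS had 6.59 and 7.32 FPKM at low density and 2.17 and 2.06 FPKM at high density, and 11.1 and 13.0 FPKM in shControl and 4.59 and 3.88 FPKM in shETV4. CER1 ranked 133rd, SMAD7 236th and TDGF1 829th. The NODAL pathway genes were chosen on both comparisons, on which this distance largely rests. Their ranks therefore carry no weight beyond description. The division of reads between LEFTY1 and LEFTY2 is uncertain here too. LINC00886 rests on 8 to 35 reads a library.

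Beyond the 10 genes, a list of 49 further genes of the NODAL and activin pathway was written by role. Earlier results of these data were known by then, so the adjusted p-values of its genes are not independent tests. At high density 40 of the 49 were tested, of which 6 rose and 4 fell past both thresholds and 30 did not pass them, beside 10.7% higher and 5.47% lower over all genes tested. Their median log2 fold change was 0.00, as for all genes tested. Among the inhibitors outside the cell, FST (follistatin, which binds activin) rose from 2.46 ± 0.130 to 5.37 ± 0.163 FPKM (SD, n = 2; log2 fold change 1.04 ± 0.11 (SE), adjusted p = 3.99e-07, edgeR). The transmembrane protein TMEFF1, which can bind TDGF1, rose (0.55 ± 0.06, adjusted p = 2.55e-07). BAMBI, a pseudoreceptor that lacks the kinase domain, fell from 11.9 ± 0.505 to 6.04 ± 0.245 FPKM (-1.04 ± 0.09, adjusted p = 1.61e-08). PMEPA1, an intracellular inhibitor induced by TGFβ signalling, fell from 6.75 ± 0.660 to 3.61 ± 0.445 FPKM (-0.95 ± 0.09, adjusted p = 8.88e-08).

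Among the ligands, GDF11 rose (log2 fold change 0.79 ± 0.07, adjusted p = 3.26e-08), and INHBA, which encodes the activin A subunit, fell from 0.513 and 0.533 FPKM to 0.310 and 0.195 FPKM (-1.11 ± 0.23, adjusted p = 0.000621). GDF3, a NODAL-related ligand, had 7.13 ± 0.682 FPKM at low density and 9.68 ± 0.605 FPKM at high density (0.38 ± 0.11, adjusted p = 0.00865), short of the fold threshold. The signal carriers SMAD2 (0.04 ± 0.06, adjusted p = 0.662), SMAD3 (-0.28 ± 0.08, adjusted p = 0.00629) and SMAD4 (0.36 ± 0.06, adjusted p = 4.29e-05) stayed under the fold threshold, as did the type I receptor TGFBR1 (0.00 ± 0.06, adjusted p = 0.983). For SMAD2, counts and FPKM gave different sizes, with 1.90 FPKM in both low-density libraries against 2.74 and 2.36 FPKM at high density. The other genes past the thresholds, GDF1, HHEX, ACVR1C and FOXA2, had means under 1 FPKM in both groups and are named after their values were seen. FOXA2, an endoderm factor, went from 26 and 48 reads to 4 and 7 reads, and HHEX from 6 and 19 reads to 74 and 86 reads.

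In the KD experiment 39 of the 49 genes were tested, of which 5 rose, 5 fell and 29 did not pass the thresholds, beside 5.88% higher and 7.10% lower over all genes tested. The median log2 fold change was -0.06, beside 0.00 for all genes tested. INHBA and INHBE, which encode activin subunits, rose in shETV4: INHBA from 0.102 and 0.0990 FPKM to 0.648 and 0.802 FPKM (log2 fold change 2.85 ± 0.24, adjusted p = 0.000489) and INHBE from 9.45 ± 0.414 to 29.5 ± 6.29 FPKM (1.65 ± 0.15, adjusted p = 0.000714). FST rose here too, from 2.80 ± 0.0672 to 4.93 ± 0.283 FPKM (0.79 ± 0.13, adjusted p = 0.00653). TGIF1, a nuclear corepressor of SMADs, rose (0.54 ± 0.08, adjusted p = 0.00371), whereas its relative TGIF2 fell (-0.76 ± 0.11, adjusted p = 0.00391). Without the first shControl library TGIF1 was at 0.48, under the fold threshold.

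Among the genes that fell, GDF3 went from 7.62 ± 0.571 to 4.28 ± 0.335 FPKM (-0.83 ± 0.15, adjusted p = 0.00844), and TGFBR3, which encodes betaglycan, went from 1.07 ± 0.149 to 0.454 ± 0.00728 FPKM (-1.22 ± 0.18, adjusted p = 0.00355). PCSK5, a proprotein convertase, fell as well (-0.70 ± 0.13, adjusted p = 0.00858). The SMADs did not pass the thresholds, with SMAD2 at 0.13 ± 0.08 (adjusted p = 0.294), SMAD3 at -0.36 ± 0.15 (adjusted p = 0.114) and SMAD4 at -0.06 ± 0.08 (adjusted p = 0.577), nor did TGFBR1 (-0.10 ± 0.09, adjusted p = 0.493). Without the first shETV4 library SMAD3 was past them, at -0.60. BAMBI (-0.21 ± 0.14, adjusted p = 0.295) and PMEPA1 (-0.14 ± 0.13, adjusted p = 0.475), which fell at high density, did not pass in shETV4, and whether they differ between the experiments was not tested. The remaining genes past the thresholds, ACVR1C and GATA4, had means under 1 FPKM in both groups and are named after their values were seen.

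**Figure D4:**
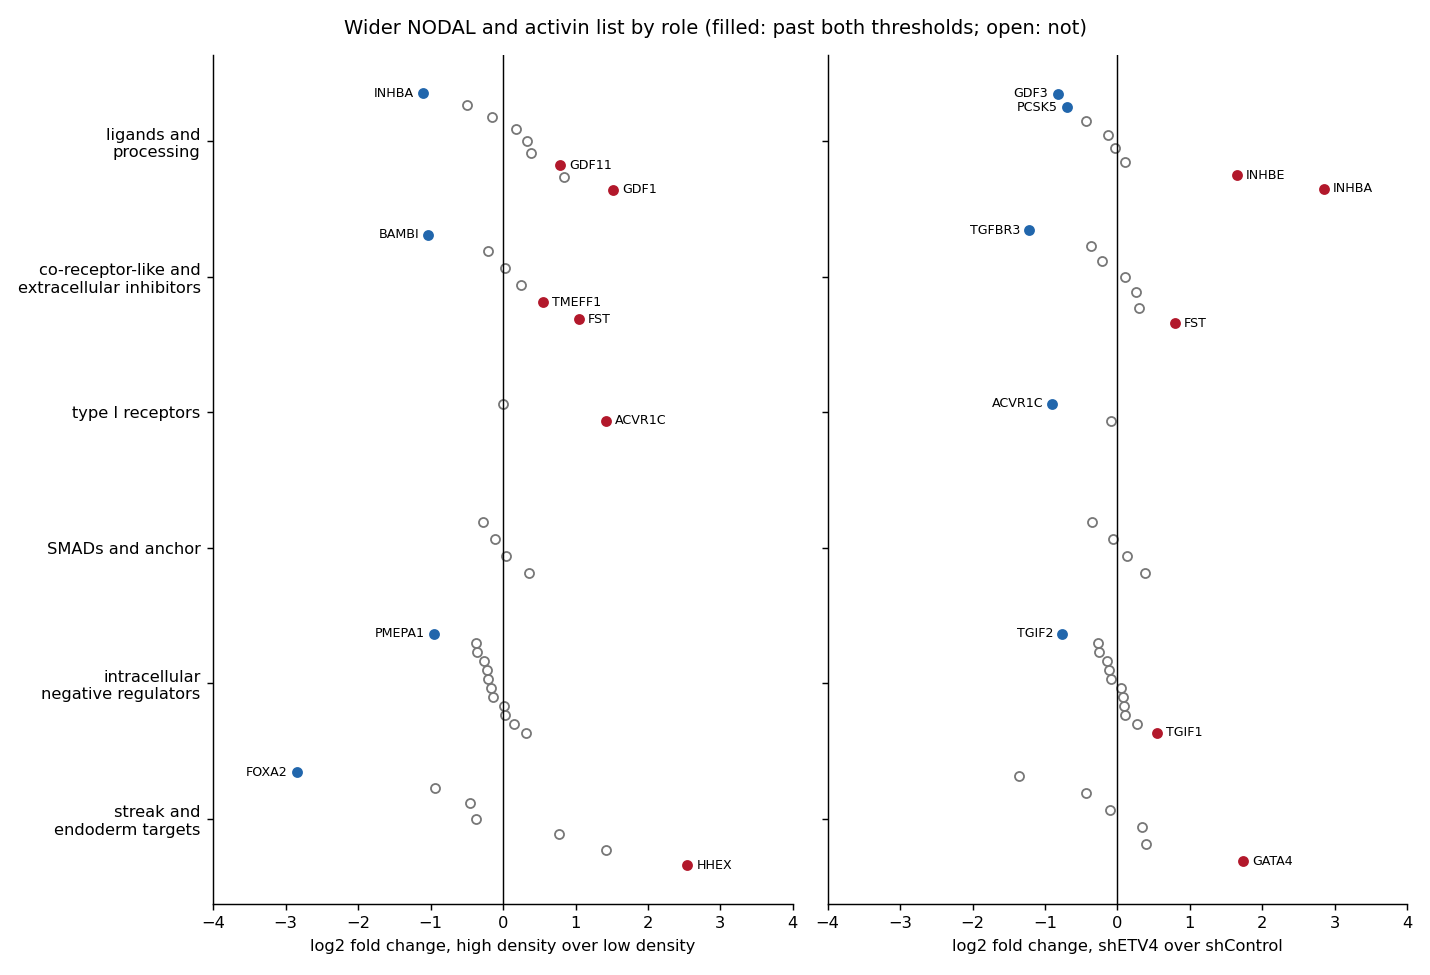
Log2 fold changes of the tested genes of the wider NODAL and activin list, grouped by role, for high density over low density (left, 40 genes) and shETV4 over shControl (right, 39 genes). Each symbol is 1 gene; filled symbols with names passed both thresholds, 6 higher and 4 lower on the left and 5 higher and 5 lower on the right.

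Markers of other cell types moved in part with these groups. OTX2, the neuroectoderm marker with the highest level, had 10.7 and 11.2 FPKM at low density and 18.2 and 13.4 FPKM at high density (adjusted p = 0.0551), and rose from 2.50 and 2.81 FPKM in shControl to 15.9 and 19.3 FPKM in shETV4 (log2 fold change 2.73 ± 0.13, adjusted p = 0.000103). The summed level of the 5 neuroectoderm markers, of which 4 are in each table, was 10.9 to 11.4 FPKM at low density, 13.5 to 18.3 at high density, 2.74 to 3.03 in shControl and 16.1 to 19.6 in shETV4, and OTX2 made up most of it. At high density SOX1 rose (log2 fold change 2.27 ± 0.61, adjusted p = 0.00548), from 3 and 4 reads to 20 and 18. LHX2 fell there (-1.55 ± 0.54, adjusted p = 0.0266), from 17 and 18 reads to 6 and 7. PAX6 had 6 and 16 reads at low density against 6 and 3 at high density, and was not tested. In shETV4, LHX2 (-0.09 ± 0.63) and SIX3 (0.27 ± 0.45) did not pass the thresholds. SOX1, with 14 and 4 reads in shControl and 6 and 2 in shETV4, was not tested. PAX6 is not among the genes of the KD experiment. Of 5 fibroblast markers, LUM and DCN are in neither table, and COL1A1 rose in shETV4 from 21.5 and 22.4 FPKM to 44.9 and 42.8 FPKM (1.00 ± 0.07, adjusted p = 0.000205), with COL1A2 at -0.50 ± 0.09 (adjusted p = 0.0101), short of the fold threshold. The summed fibroblast level was 35.8 to 36.2 FPKM at low density, 29.9 to 30.0 at high density, 34.4 to 36.4 in shControl and 51.5 to 55.3 in shETV4. Of 5 extraembryonic markers, 1 is in the crowding table and 3 in the KD table, with summed levels of 2.20 to 3.32 FPKM over the 4 groups. Among the pluripotency markers, DNMT3B fell (-0.82 ± 0.07, adjusted p = 0.000464) and LIN28A rose (0.51 ± 0.06, adjusted p = 0.00228) in shETV4, and at high density the 9 markers lay between NANOG at -0.46 ± 0.06 (adjusted p = 3.36e-06) and SOX2 at 0.41 ± 0.05 (adjusted p = 6.71e-06), all short of the fold threshold. The part of these markers in the values of the NODAL pathway genes was not tested.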

How the data were processed

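The authors sequenced poly-A RNA in 8 H9 hESC libraries, 2 per group. Per the labels and the study's methods, reads were trimmed with Trimmomatic, mapped to GRCh37 (hg19) with HISAT2 2.1.0 and assembled with StringTie 2.1.3b. The authors deposited read counts per gene, not normalized, and FPKM, normalized by transcript length and mapped fragments, in 1 table per experiment. Each table keeps only genes with at least 1 read in each of its 4 libraries. Fold change and p columns of the authors' own comparisons and 16 further per-sample columns were not used.

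Counts were tested within each table with edgeR 4.0.16 (filterByExpr, TMM, robust quasi-likelihood test) in R 4.3.3, with Benjamini-Hochberg adjustment over all genes tested. The study's methods name DESeq2, which was an alternative here (1.42.0). Called genes had an adjusted p under 0.05 and a log2 fold change beyond 0.5 in either direction. The SE was taken as the size of the log2 fold change over the root of the F statistic. With 2 libraries a group, no permutation test of a single gene can reach 0.05. Library totals of 50359703 to 62410168 counts keep counting error small except for genes with few reads.

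The 10 genes and all lists were chosen with earlier results of these data known. The genes named are the 10, ETV4, SMAD2, SMAD3, SMAD4, GDF3, INHBA, TGFBR1 and FST, up to 8 called genes of the wider list per experiment with the largest fold change and a mean of at least 1 FPKM in a group, and the 5 genes nearest to LEFTY1 by log2 CPM (prior count 2). Of overlapping genes and near copies of the 10, KIFC2 and TDGF1P3 are named beside the values. The spans of ORC4, LRRC2 and ACVR2B-AS1 overlap those of ACVR2A, TDGF1 and ACVR2B in turn. Their log2 fold changes in shETV4 were -0.51 ± 0.08, 0.17 ± 0.13 and -0.50 ± 0.23 (SE). At high density these were 0.03 ± 0.07, -0.05 ± 0.12 and 0.46 ± 0.20. Their part in the values of the 10 genes was not tested. Positions are from GENCODE's annotation lifted to GRCh37, in which all 10 genes were found. Alternatives were DESeq2's size factors, the DESeq2 Wald test, no filter, a minimum of 10 counts per library, a block for the replicate number, limma 3.58.1 on log2(FPKM + 0.5) where the mean FPKM reached 0.5, the same with pseudocounts of 0.1 and 1 or with all genes, an absolute log2 fold change over 1, each library left out, LEFTY1 and LEFTY2 summed and, added after the data were seen, library totals with no scaling factors. The fits were also run on simulated counts, with changes planted only in genes with more reads. Its outcome is not given here, and nothing above rests on it.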

Additional observations from a re-analysis of the deposited data

How the results depend on the processing

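The 10 genes kept the sign of every called log2 fold change under each alternative. Of values not called, ACVR2A at high density went from -0.06 to 0.04 without the second high-density library, and FOXH1 in shETV4 went from 0.05 to -0.11 without the second shETV4 library. At high density, 6 of the 10 were past both thresholds under each alternative that kept LEFTY1 and LEFTY2 apart, except an absolute log2 fold change over 1, which left 5; leaving out 1 library gave 6 each time. In shETV4 the count was 4 to 6 with 1 library left out and 4 or 5 under the others that kept LEFTY1 and LEFTY2 apart. With LEFTY1 and LEFTY2 summed, the sum was called in both experiments, with 4 of the other 8 genes at high density and 3 in shETV4. With 1 library left out, the log2 fold change ranged at high density from -1.96 to -1.41 for NODAL, -2.25 to -1.60 for LEFTY1 and -4.25 to -3.01 for CER1, and in shETV4 from -1.98 to -1.38, -3.29 to -2.66 and -1.63 to -0.69. Over all genes, the 2851 called at high density became 1717, 1256 and 1839 with limma on log2(FPKM + 0.5), log2(FPKM + 1) and log2(FPKM + 0.5) for all genes, and 1135 at an absolute log2 fold change over 1. The 2321 called in shETV4 became 1325 with limma on log2(FPKM + 1), 1502 with limma for all genes and 761 at an absolute log2 fold change over 1. With 1 library left out they ranged from 2407 (without the first low-density library) to 3408 (without the first high-density library) and from 1587 (without the first shControl library) to 3390 (without the first shETV4 library). Of the wider list, the 10 called at high density became 5 with limma at pseudocounts of 0.5, 0.1 and 1, where fewer genes were tested, and the 10 in shETV4 became 6 with limma on log2(FPKM + 1) and 4 at an absolute log2 fold change over 1; with 1 library left out they ranged from 10 to 13 and from 7 to 12. INHBA at high density was no longer called with limma for all genes (-0.45), nor PCSK5 in shETV4 with limma on log2(FPKM + 1) (-0.42). The causes of the other moves were not tested. TGFBR1, at 0.00 at high density, changed sign with library totals (0.0446), no filter (0.000652), 10 counts in every library (0.0039) and limma (0.0508 at 0.5 with and without the FPKM minimum, 0.0529 at 0.1, 0.0484 at 1), and ranged from -0.0161 to 0.0146 with 1 library left out. GDF11, not called in shETV4, ranged from -0.19 to 0.15. The replicate block gave 2874 and 2901 called genes and changed no call of the 10 genes. With the block, edgeR's common coefficient of variation went from 6.83% to 6.74% in the crowding experiment and from 9.93% to 7.38% in the KD experiment. Deviations of same-numbered libraries had correlations of -0.0416 and 0.0856. Whether same-numbered libraries shared a batch is not stated and was not tested. Library totals alone moved the median log2 fold change of all genes by less than 0.1. With 2 libraries a group and 1 line, other cultures, lines or hairpins are not covered, and CER1 and genes under 1 FPKM rest on few reads.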
